A study of Oryza sativa with 6 samples.

Results

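The transcripts described here encode the enzymes that make and remove hydrogen peroxide in rice and the small redox proteins that work beside them. They comprise superoxide dismutases (SOD), catalases (CAT), ascorbate peroxidases (APX), type II peroxiredoxins (PRXII), glutaredoxins (GRX) and thioredoxins (TRX). Members were chosen by name: every probe set of the Affymetrix Rice Genome Array that maps to 1 gene and whose symbol or synonym, with a leading Os dropped, begins with APX, CATA to CATC, SOD, GRXC, GRXS, TRX or PRXII. Class III peroxidases were left out. The rule matched 61 genes, of which 50 have at least 1 such probe set and 11 have none, and it gave 74 of the 57381 probe sets on the array. By class these are 6 SOD probe sets for 4 genes, 8 CAT probe sets for 2 genes, 10 APX probe sets for 7 genes, 6 PRXII probe sets for 4 genes, 22 GRX probe sets for 18 genes and 22 TRX probe sets for 15 genes. 1 of the genes caught by the prefix TRX, SDG723, encodes a SET domain histone methyltransferase of the trithorax type and not a thioredoxin, and it is described apart at the end of the thioredoxins. Where a gene has several probe sets they carry letters after its symbol, A being the one with the highest mean signal over the 6 arrays, and these letters serve as names alone.

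Rice of the genotype RP2068-18-3-5 (RP), which resists the Asian rice gall midge, was grown in trays, and 25 female and 10 male midges of biotype GMB1 were released on 15-day-old plants. All trays, with or without midges, were moved to a humid chamber after 48 h. RP-I denotes 1 cm of stem tissue from the feeding site of the maggots, and RP-UI denotes the same stretch of plants that never met the insect. The 3 RP-I and 3 RP-UI arrays each come from separate trays, and each array joins 3 harvests, made 24, 48 and 72 h after infestation, whose courses in time were therefore not resolved. Live or dead maggots were picked out of the infested tissue before RNA was made. Whether a lower signal reflects fewer cells of a type or less RNA per cell cannot be told apart in such bulk tissue.

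Plant cells under attack release superoxide, which superoxide dismutases turn into hydrogen peroxide. Catalases split hydrogen peroxide without a reductant, ascorbate peroxidases reduce it with ascorbate, and peroxiredoxins reduce it with a cysteine that thioredoxins or glutaredoxins must then restore. Glutaredoxins draw their electrons from glutathione, and thioredoxins draw theirs from NADPH or, in plastids, from photosynthetic ferredoxin through dedicated reductases. Peroxide is both toxic and a signal of the hypersensitive response, the local cell death with which resistant plants answer biotrophic attackers.

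The comparison of RP-I with RP-UI asked which of these transcripts differ in abundance at the feeding site. In the comparison without a block, 0 of the 73 members tested passed an adjusted p of 0.05 with limma, where 0.563% of all 51532 probe sets tested passed (0.235% higher and 0.328% lower in RP-I). With p left unadjusted, 10 members reached 0.05 as higher in RP-I and 1 as lower, which is 15.1% of the members and close to the 14.2% found over the array. When a 2-fold change was asked for as well, in the manner of the study, 3 members were higher and 1 was lower. This is 5.48% of the members, against 5.56% over the array (2.66% higher and 2.90% lower). Every RP-I array lay above every RP-UI array for 9 members and below for 4, that is 17.8%, against 18.9% over the array (9.12% above and 9.73% below). By these rules the members as a group were called about as often as any other probe set.

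Arrays with the same replicate number deviated together from their group means. Number 2 barely stood out, with a correlation of 0.308 against 0.295 with an array of another number. What links same-numbered arrays is not stated, and the pairing was read from these same data. A second fit took that number as a block. There, 9 members passed an adjusted p of 0.05 as higher in RP-I and 1 as lower, or 13.7% of the members, where 8.50% of all probe sets passed (4.06% higher and 4.44% lower). The 10 probe sets belong to 7 genes: the glutaredoxins GRXC1, GRXC10 and GRXC6, the thioredoxins CXXS1 and Trxh4-1, the catalase CatB with 4 probe sets, and the peroxiredoxin PRXIIE-2, the one lower in RP-I. Below, "rose" and "fell" refer to this blocked fit alone. Without pair 1, the blocked fit called 0 members and 0% of the probe sets on the array by limma, although 8110 probe sets reached 0.05 before adjustment. The log2 fold changes of the 10 called probe sets were then still 0.93 to 1.17 times those with all pairs, so the calls but not the sizes changed with this pair. Without pair 2 the blocked fit called 6 members (6.13% of all probe sets) and without pair 3 it called 5 (4.20% of all).

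**Figure D1:**
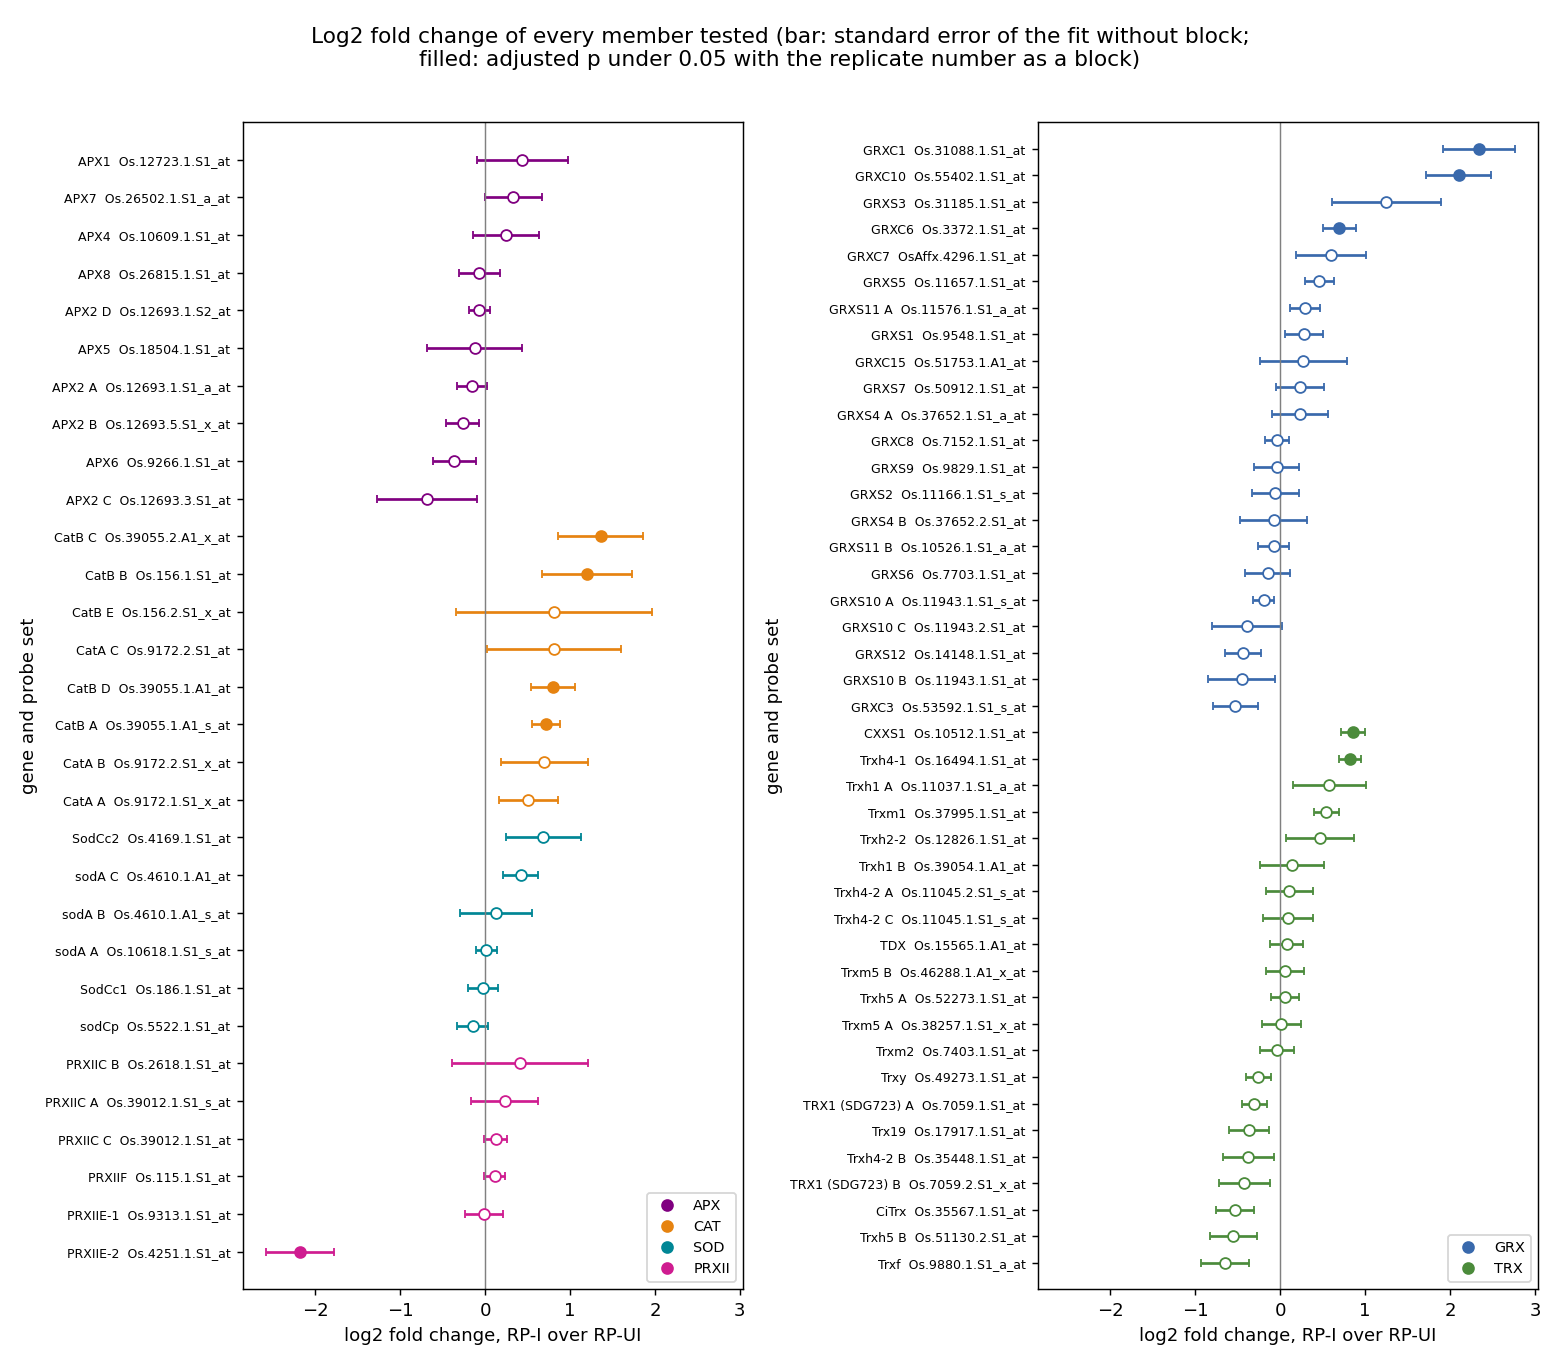
Log2 fold change (RP-I over RP-UI, horizontal axis) of the 73 member probe sets tested, with dismutases, catalases, ascorbate peroxidases and type II peroxiredoxins in the left panel and glutaredoxins and thioredoxins in the right panel. Bars are standard errors of the fit without a block and filled points passed an adjusted p of 0.05 with the block. All 8 catalase points lie right of 0, the largest gains are those of GRXC1 (2.34) and GRXC10 (2.10), and PRXIIE-2 (-2.18) lies alone on the far left.

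Over the 73 members tested the mean was higher in RP-I for 42 and lower for 31, with a median log2 fold change of 0.09, where the median over the array was 0.01 and 51.4% of probe sets had the higher mean in RP-I. The class medians were 0.80 for CAT, 0.12 for PRXII, 0.10 for GRX, 0.07 for SOD, 0.05 for TRX and -0.09 for APX. When any single array was left out, the CAT and GRX medians stayed above 0, whereas those of PRXII, SOD, TRX and APX took either sign. CAT stayed at the top, but its median is over 8 probe sets of 2 genes, 5 of them of CatB. With 1 probe set a gene it was 0.61. It describes these genes and is not read as a result for a class. Apart from the catalases, each class held members on both sides of 0. Of 13 genes with several tested probe sets, 9 had all of them on the same side of 0 and 4 (GRXS4, GRXS11, Trxh4-2 and Trxh5) did not. The IDs of 24 member probe sets carry a suffix (_s, _x or _a) that marks probes which may also bind related transcripts.

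The dismutases supply peroxide that catalases, ascorbate peroxidases and peroxiredoxins remove, and none of the 6 dismutase probe sets passed in either fit. The largest difference was that of SodCc2, a cytosolic copper/zinc dismutase (LOC4344210). Its log2 signal was 11.08, 11.15 and 12.54 in RP-I 1, 2 and 3, against 10.56, 10.75 and 11.40 in RP-UI 1, 2 and 3. Each RP-I array was above the RP-UI array of the same number, but the groups overlapped because both arrays numbered 3 were high. The log2 fold change was 0.69 ± 0.44 (SE), with an adjusted p of 0.616 without the block and 0.0935 with it. Without RP-I 3 the log2 fold change was 0.21.

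The other cytosolic dismutase, SodCc1 (LOC4332846), had log2 signals of 13.39, 12.87 and 13.02 in RP-I 1, 2 and 3, and of 13.02, 13.12 and 13.21 in RP-UI 1, 2 and 3. The groups overlapped fully, and the 95% interval of the log2 difference ran from -0.44 to 0.40. The plastid copper/zinc enzyme sodCp (LOC4346329) was at 11.97, 11.98 and 11.58 in RP-I 1, 2 and 3, against 12.10, 12.10 and 11.77 in RP-UI 1, 2 and 3 (log2 signal). It was lower in RP-I in all 3 pairs by a small step (log2 fold change -0.15 ± 0.18, adjusted p = 0.857). For sodA (LOC4338417), the manganese dismutase of mitochondria, 3 probe sets gave log2 fold changes between 0.02 and 0.42, with the smallest adjusted p at 0.450.

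The catalases were the only class whose members all had the higher mean in RP-I, with log2 fold changes between 0.51 and 1.36 over the 5 probe sets of CatB and the 3 of CatA. CatB rose by 4 of its 5 probe sets. Probe sets of 1 gene share its RNA and are not independent, so this counts as 1 gene.

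CatB A, the brightest of the probe sets of CatB (LOC4342124), had log2 signals of 13.37, 13.33 and 13.01 in RP-I 1, 2 and 3, against 12.64, 12.59 and 12.33 in RP-UI 1, 2 and 3. The groups did not overlap, and the step within each pair was nearly the same (log2 fold change 0.72 ± 0.17, adjusted p = 0.112 without the block and 0.0313 with it). On CatB D the log2 signal was 7.23, 7.46 and 8.10 in RP-I 1, 2 and 3, and 6.53, 6.80 and 7.05 in RP-UI 1, 2 and 3. Here too the groups were separate (log2 fold change 0.80 ± 0.26, adjusted p = 0.231, and 0.0359 with the block).

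A pair of further CatB probe sets showed larger and less even steps on top of a high array number 3. CatB B gave log2 signals of 11.16, 10.84 and 12.38 in RP-I 1, 2 and 3, and 9.80, 9.81 and 11.17 in RP-UI 1, 2 and 3. CatB C gave 10.59, 10.84 and 11.61 in RP-I 1, 2 and 3, against 9.09, 9.15 and 10.72 in RP-UI 1, 2 and 3. In both, RP-UI 3 reached into the range of RP-I, so the groups overlapped, yet every pair was higher in RP-I. Their log2 fold changes were 1.20 ± 0.53 (adjusted p = 0.386, and 0.0172 with the block) and 1.36 ± 0.50 (adjusted p = 0.286, and 0.0239 with the block), about 2.3 and 2.57 times the RP-UI level. Without RP-I 3 the log2 fold change of CatB B was 0.74.

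The dimmest CatB probe set, E, did not follow. It was at 5.80, 5.64 and 9.67 in RP-I 1, 2 and 3, and at 5.39, 5.84 and 7.44 in RP-UI 1, 2 and 3 (log2 signal). RP-I 3 alone stood far above the rest, and without it the log2 fold change was -0.51, in place of 0.81 ± 1.16 with all arrays. CatA (LOC4328073), the second catalase, reached log2 signals of 6.95, 7.43 and 9.19 in RP-I 1, 2 and 3 on probe set C, against 6.83, 5.92 and 8.39 in RP-UI 1, 2 and 3. All pairs were higher in RP-I on this probe set, whereas its other probe sets were lower in RP-I in pair 1. The 3 CatA log2 fold changes were between 0.51 and 0.81, and the smallest adjusted p was 0.653. They rested on few arrays, being between 0.16 and 0.24 without RP-UI 2, and probe set C was at 0.14 without RP-I 3.

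**Figure D2:**
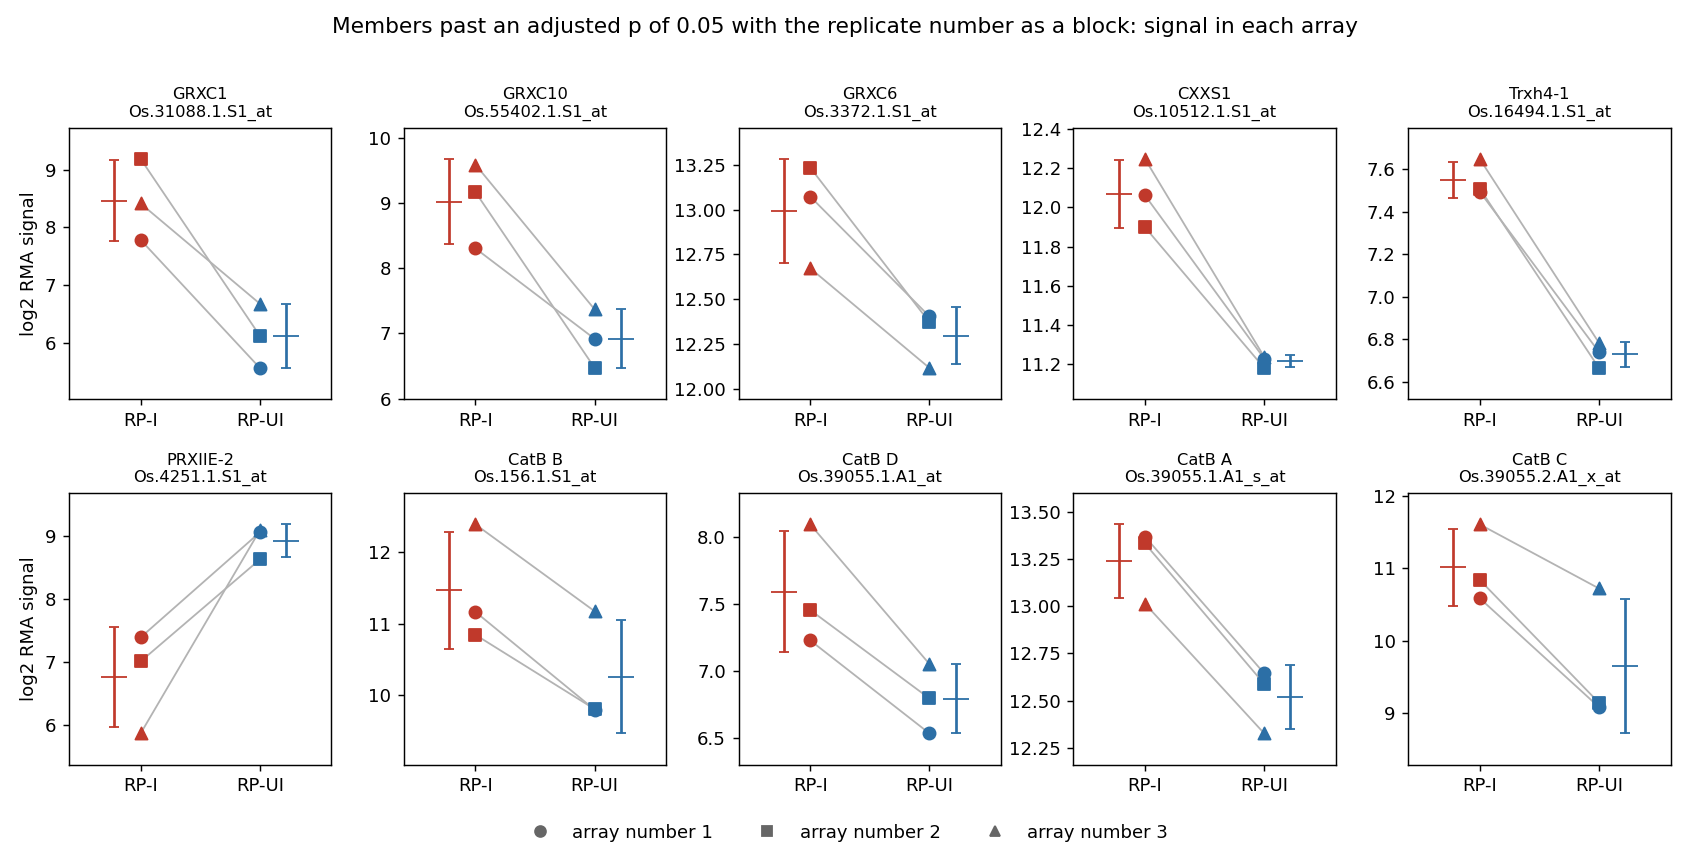
Log2 RMA signal (vertical axis, scaled to each panel) of the 10 member probe sets that passed an adjusted p of 0.05 with the block, in RP-I (red, left) and RP-UI (blue, right). Each marker is 1 array, grey lines join arrays of the same replicate number, and the bars beside the markers show the mean ± SD over 3 arrays. In 8 panels the groups do not overlap, while for CatB B and CatB C the triangle of RP-UI 3 reaches into the range of RP-I.

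No ascorbate peroxidase probe set passed in either fit, and none of the 10 separated the groups. APX1, a cytosolic enzyme (LOC4332474), had log2 signals of 12.31, 12.12 and 13.74 in RP-I 1, 2 and 3, against 11.73, 12.02 and 13.09 in RP-UI 1, 2 and 3. It was higher in RP-I in each pair, but the arrays numbered 3 exceeded the others by 1.52 in RP-I and 1.21 in RP-UI, which is more than the log2 difference between the groups (0.44 ± 0.53, adjusted p = 0.853). Without RP-I 3 its log2 fold change was -0.07.

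APX2 (LOC4344397), the other cytosolic enzyme, had the lower mean in RP-I on all 4 of its probe sets, with log2 fold changes between -0.69 and -0.07. The widest gap was on APX2 C, with log2 signals of 7.71, 7.34 and 5.75 in RP-I 1, 2 and 3 and of 8.38, 7.00 and 7.48 in RP-UI 1, 2 and 3. RP-I 3 was the low array here, the groups overlapped, and the adjusted p was 0.750. On the bright APX2 A the log2 signals were 13.72, 13.35 and 13.16 in RP-I 1, 2 and 3, and 13.59, 13.62 and 13.48 in RP-UI 1, 2 and 3 (log2 fold change -0.15 ± 0.18).

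APX7, a stromal enzyme of plastids (LOC4335896), was at 10.71, 10.79 and 9.56 in RP-I 1, 2 and 3, and at 10.17, 9.89 and 10.00 in RP-UI 1, 2 and 3 (log2 signal). RP-I 1 and RP-I 2 lay above every RP-UI array and RP-I 3 below every one. APX6 (LOC4351663) was lower in RP-I in all 3 pairs, at 10.96, 10.84 and 10.14 in RP-I 1, 2 and 3 against 11.14, 11.13 and 10.75 in RP-UI 1, 2 and 3 (log2 fold change -0.36 ± 0.25, adjusted p = 0.659). The remaining genes of the class, among them the peroxisomal APX4 and the thylakoid APX8, had log2 fold changes between -0.12 and 0.24.

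Among the type II peroxiredoxins 1 gene was called. PRXIIE-2 (LOC4328586), named after the plastid peroxiredoxin E of Arabidopsis, fell in RP-I. Its log2 signal was 7.39, 7.01 and 5.86 in RP-I 1, 2 and 3, against 9.07, 8.63 and 9.10 in RP-UI 1, 2 and 3. All RP-I arrays were more than 1 log2 unit below all RP-UI arrays, and RP-I 3 was the lowest. The log2 fold change was -2.18 ± 0.40, or 0.22 times the RP-UI level (95% interval of the log2 difference -3.15 to -1.22), with an adjusted p of 0.0751 without the block and 0.0305 with it. Without RP-I 3 the fit without a block gave an adjusted p of 0.0494 and a log2 fold change of -1.74, and it was then the only member called, where 0.543% of all probe sets were.

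Its sister gene PRXIIE-1 (LOC4341570) was at 11.89, 11.56 and 12.28 in RP-I 1, 2 and 3, and at 11.78, 11.80 and 12.18 in RP-UI 1, 2 and 3 (log2 signal). The groups overlapped, with a log2 fold change of -0.01 and a 95% interval from -0.56 to 0.54. The log2 signal of PRXIIE-2 minus that of PRXIIE-1 within an array was -4.50, -4.55 and -6.42 in RP-I 1, 2 and 3, against -2.71, -3.16 and -3.08 in RP-UI 1, 2 and 3. The sizes of these gaps carry the affinities of the probes, so only their difference between groups is read, which was -2.17. This is a description without a test, since the genes were set side by side after their values were seen.

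The cytosolic PRXIIC (LOC4325511) followed array number 3 more than the group. On probe set B its log2 signals were 11.02, 10.88 and 13.12 in RP-I 1, 2 and 3, and 10.44, 10.71 and 12.63 in RP-UI 1, 2 and 3. Arrays numbered 3 exceeded the other arrays by 2.16 in RP-I and by 2.05 in RP-UI, while the log2 fold change between the groups was 0.41 ± 0.80 (adjusted p = 0.928). All 3 of its probe sets were higher in RP-I in each pair, with log2 fold changes between 0.12 and 0.41, none of which passed. PRXIIF, whose Arabidopsis counterpart is mitochondrial, had a log2 fold change of 0.11 with a 95% interval from -0.19 to 0.41.

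The glutaredoxins held the largest increases among the members. GRXC1 (LOC4325734) had log2 signals of 7.78, 9.19 and 8.41 in RP-I 1, 2 and 3, against 5.56, 6.12 and 6.67 in RP-UI 1, 2 and 3. The lowest RP-I array was more than 1 log2 unit above the highest RP-UI array. It rose by a log2 fold change of 2.34 ± 0.43, or 5.07 times (95% interval of the log2 difference 1.32 to 3.37), with an adjusted p of 0.0744 without the block and 0.0180 with it. The study's own annotation assigns this probe set to more than 1 locus, so the signal may come from several genes.

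GRXC10 (LOC4351046) was at 8.30, 9.17 and 9.59 in RP-I 1, 2 and 3, and at 6.92, 6.47 and 7.37 in RP-UI 1, 2 and 3 (log2 signal). The groups were again separate, and the log2 fold change was 2.10 ± 0.38, or 4.29 times (adjusted p = 0.0741, and 0.0203 with the block). GRXC1, GRXC10 and PRXIIE-2 are also the members that the study lists among its redox transcripts, a list drawn up from the same arrays, and their direction is thus fixed by that choice.

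GRXC6 (LOC4336354) rose by a smaller step, with log2 signals of 13.07, 13.24 and 12.67 in RP-I 1, 2 and 3 against 12.40, 12.37 and 12.12 in RP-UI 1, 2 and 3. Every RP-I array was above every RP-UI array (log2 fold change 0.70 ± 0.19, adjusted p = 0.158, and 0.0404 with the block). GRXC3 (LOC4329462), related by its synonym to the ROXY glutaredoxins that act with TGA factors in Arabidopsis flowers, went the other way in each pair. It was at 8.69, 8.45 and 8.23 in RP-I 1, 2 and 3, and at 9.33, 9.17 and 8.46 in RP-UI 1, 2 and 3 (log2 signal). RP-UI 3 overlapped with RP-I, and the log2 fold change of -0.53 ± 0.26 did not pass (adjusted p = 0.464).

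The names GRXC and GRXS separate glutaredoxins with a Cys-X-X-Cys type active site from those with a Cys-X-X-Ser type, in which the second cysteine is replaced by serine. Only 7 of the 13 GRXC genes matched by the rule have a probe set, whereas all 11 GRXS genes do. Of 7 GRXC probe sets, 5 had the higher mean in RP-I, with a median log2 fold change of 0.60. Of 15 GRXS probe sets, 6 had the higher mean in RP-I and the median was -0.06. The difference between these medians was not tested.

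GRXS3 (LOC4327691) had the largest difference among the GRXS members, with log2 signals of 8.69, 9.13 and 6.80 in RP-I 1, 2 and 3 against 6.82, 7.64 and 6.41 in RP-UI 1, 2 and 3. Both arrays numbered 3 were the lowest of their group, and the groups overlapped. The log2 fold change was 1.25 ± 0.64 (adjusted p = 0.484, and 0.0728 with the block). Without both arrays numbered 3, an alternative chosen after the data were seen, it was 1.68 and passed at an adjusted p of 0.0481. That setting called 7 members, against 4.79% of all probe sets. GRXS5 (LOC4326324) was at 13.05, 13.24 and 12.73 in RP-I 1, 2 and 3, and at 12.41, 12.65 and 12.56 in RP-UI 1, 2 and 3 (log2 signal), which separated the groups by a narrow margin (log2 fold change 0.46 ± 0.17, adjusted p = 0.300). The other GRXS members had log2 fold changes between -0.45 and 0.29.

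Among the thioredoxins the clearest differences were small and tight. CXXS1 (LOC4337091), whose Arabidopsis namesake has serine for the second cysteine of the active site, had log2 signals of 12.06, 11.90 and 12.25 in RP-I 1, 2 and 3, against 11.23, 11.18 and 11.24 in RP-UI 1, 2 and 3. The RP-UI arrays lay within 0.1 log2 unit of each other and all RP-I arrays were above them (log2 fold change 0.86 ± 0.14, or 1.81 times, adjusted p = 0.0641, and 0.0267 with the block).

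Trxh4-1 (LOC4325189), a thioredoxin of the cytosolic h type, was at 7.50, 7.51 and 7.65 in RP-I 1, 2 and 3, and at 6.74, 6.66 and 6.78 in RP-UI 1, 2 and 3 (log2 signal). The groups did not overlap, and the log2 fold change of 0.82 ± 0.13 (1.77 times) had the smallest adjusted p among the members without the block, 0.0583, and 0.0251 with it. When the arrays were quantile normalized once more, CXXS1 and Trxh4-1 passed without the block, at adjusted p of 0.0444 and 0.0482, where 0.780% of all probe sets passed.

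Other h-type members were higher in RP-I in each pair without passing. Trxh1 (LOC4342593), first described as a protein of rice phloem sap, had log2 signals of 10.20, 10.72 and 11.21 in RP-I 1, 2 and 3 on probe set A, against 9.37, 10.12 and 10.90 in RP-UI 1, 2 and 3. Trxh2-2 (LOC4334453) was at 10.08, 10.31 and 11.13 in RP-I 1, 2 and 3, and at 9.66, 9.70 and 10.76 in RP-UI 1, 2 and 3. Both were highest in the arrays numbered 3, the groups overlapped in each, and the log2 fold changes were 0.58 ± 0.43 (adjusted p = 0.696) and 0.47 ± 0.40 (adjusted p = 0.750). Over the 9 Trxh probe sets the mean was higher in RP-I for 7, with a median log2 fold change of 0.11.

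The plastid thioredoxins (types f, m and y, and CiTrx, named after a tomato protein) showed no common direction, with 3 of 7 probe sets higher in RP-I and a median log2 fold change of -0.04. Trxm1 (LOC4330107) was at 10.89, 10.98 and 10.60 in RP-I 1, 2 and 3, and at 10.29, 10.30 and 10.25 in RP-UI 1, 2 and 3 (log2 signal), with separate groups and a log2 fold change of 0.54 ± 0.15 (adjusted p = 0.159, and 0.0744 with the block). Trxf (LOC4324320), which activates enzymes of carbon fixation in the light, was at 7.00, 7.06 and 6.39 in RP-I 1, 2 and 3, and at 7.00, 7.58 and 7.83 in RP-UI 1, 2 and 3. The gap lay in pairs 2 and 3, with none in pair 1 (log2 fold change -0.65 ± 0.28, adjusted p = 0.378).

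CiTrx (LOC4345435) had log2 signals of 8.59, 8.80 and 8.64 in RP-I 1, 2 and 3, against 9.06, 8.89 and 9.66 in RP-UI 1, 2 and 3. Every RP-I array was below every RP-UI array, by little in pair 2 (log2 fold change -0.53 ± 0.22, adjusted p = 0.366). SDG723 (synonym TRX1), the histone methyltransferase caught by the prefix, was also below in every array on its probe set A, at 9.98, 9.93 and 9.78 in RP-I 1, 2 and 3 against 10.40, 10.16 and 10.05 in RP-UI 1, 2 and 3 (log2 fold change -0.30 ± 0.15, adjusted p = 0.454). SDG723 B was at 5.42, 5.53 and 5.95 in RP-I 1, 2 and 3 against 5.81, 5.69 and 6.67 in RP-UI 1, 2 and 3, with overlapping groups. SDG723 C was the 1 member below the filter on low signal. Without SDG723, 42 of 71 members tested had the higher mean in RP-I and the median log2 fold change was 0.11.

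Several members belong to plastids, and the summed markers of green tissue differed between the groups, mostly through 1 gene. The 10 probe sets of RBCS, CAB2R and RCA, which encode proteins of carbon fixation and light harvesting, summed to a linear signal of 9746 to 16871 in RP-I arrays and 24092 to 33460 in RP-UI arrays, with 4 of them higher and 6 lower in RP-I. The 4 higher are all those of RBCS, with log2 fold changes between 0.00 and 0.41. The sum was carried by the 2 probe sets of CAB2R, at 5468 to 12330 in RP-I and 19751 to 28029 in RP-UI. RP-I 3 had the smallest sum over the list, although the RBCS probe sets had their largest sum there (3595). PRXIIE-2, APX7, APX8, sodCp, Trxf and Trxy were lowest in RP-I 3. In contrast, CiTrx, Trxm1, Trxm2 and Trxm5 were lowest in other arrays, and PRXIIE-1 was highest in RP-I 3 (log2 signal 12.28). The root markers LSI1, LSI2 and HAK1 (4 probe sets) summed to 964 to 1674 in RP-I and 665 to 1423 in RP-UI, so these groups overlapped. Shoot apex and stem were read from the KNOX homeobox genes OSH1, OSH6, OSH43 and OSH71 (6 probe sets), all of which had the higher mean in RP-I. Their sum was 1159 to 1450 in RP-I and 569 to 759 in RP-UI, without overlap, and OSH71 passed in the fit without a block (log2 fold change 1.64 ± 0.22, adjusted p = 0.0476). The part of green tissue in the values of PRXIIE-2 and the other plastid members, and of apex tissue in those of the members that rose, was not tested.

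**Figure D3:**
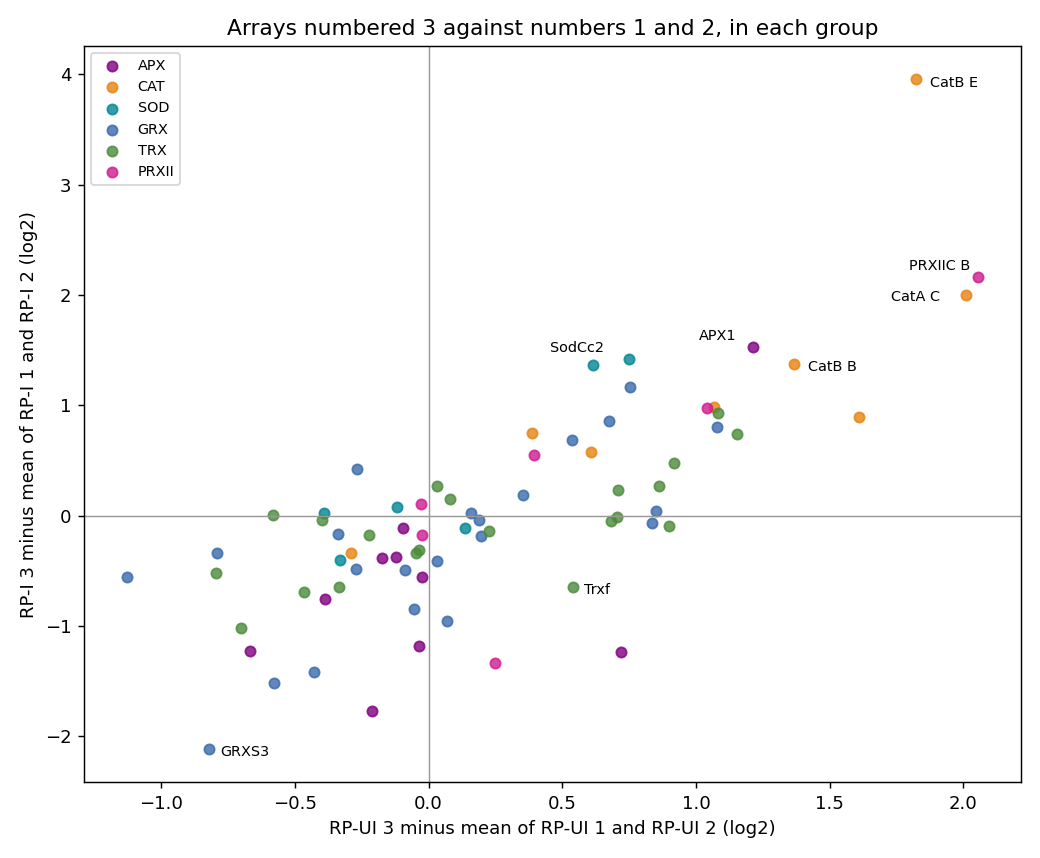
Log2 signal of array number 3 minus the mean of arrays 1 and 2, in RP-I (vertical axis) against RP-UI (horizontal axis), for the 73 members tested, coloured by class. Points at the upper right were high in both arrays numbered 3: CatB B, CatB E, CatA C, PRXIIC B and APX1 lie more than 1 log2 unit above 0 on both axes, and no member lies as far below 0 on both.

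Several peroxide-removing enzymes were high in both arrays numbered 3. RP-I 3 had a Pearson correlation of 0.973 with RP-UI 3 over all probe sets, and of 0.967 with RP-I 1 and 0.962 with RP-I 2, whereas RP-UI 3 was closest to RP-UI 1 (0.977). In 5 of the 73 members (6.85%, against 3.27% over the array) the array numbered 3 was at least 1 log2 unit above the mean of the other arrays in both groups. These were APX1, CatA C, CatB B, CatB E and PRXIIC B. None was as low in both, where 1.06% over the array were. All of them belong to the enzymes that act on peroxide directly, but some glutaredoxins and thioredoxins fell just short of this cutoff. Array number 3 was above the others by 0.93 in RP-I and 1.08 in RP-UI for Trxh2-2, and by 0.80 and 1.08 for GRXC7. Not all peroxide-removing enzymes were high there: CatB A was at -0.34 and -0.29, and APX2 A at -0.37 and -0.12. A difference between the classes was not tested. What the replicate number stands for is not given in the labels.

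Genes that work beside the members were read from lists of symbols. They make or recycle ascorbate and glutathione or reduce thioredoxins (15 probe sets), handle thiols or bind glutaredoxins (47) or are oxidases or a peroxiredoxin of another type (3). The 15 include GSH-FDH, which was caught by its symbol and is not a gene of glutathione synthesis. Over all these lists 0 of the 65 probe sets tested passed an adjusted p of 0.05 with limma without the block (14 higher and 5 lower reached 0.05 before adjustment, 29.2% against 14.2% over the array), and 8 higher and 1 lower passed with it (13.8% against 8.50%). The groups did not overlap for 15 above and 7 below, or 33.8% against 18.9%. The lists were chosen with earlier results of these data known, so these shares are not a test of the lists. Some genes also count with several probe sets, which are not independent. Among the 15 probe sets of ascorbate, glutathione and thioredoxin reduction, 2 passed with the block, both as higher (13.3%, against 8.50% over the array, 4.06% as higher). Glutathione reductase, which keeps glutathione reduced, rose on the brighter probe set, GR A. It was at 11.15, 11.11 and 11.25 in RP-I 1, 2 and 3, and at 10.20, 10.12 and 10.41 in RP-UI 1, 2 and 3 (log2 signal). The groups were far apart relative to their spread (log2 fold change 0.93 ± 0.14, adjusted p = 0.0561, and 0.0209 with the block). A second GR probe set of low signal had a log2 fold change of 0.02.

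MDAR2, a monodehydroascorbate reductase that recycles ascorbate (LOC4330469), rose as well, at 9.48, 9.24 and 9.38 in RP-I 1, 2 and 3 against 8.65, 8.67 and 8.58 in RP-UI 1, 2 and 3. Its groups were separate too (log2 fold change 0.73 ± 0.13, adjusted p = 0.0711, and 0.0357 with the block). MDAR5, the other recycling gene tested and the brighter one, had a log2 fold change of 0.04 and did not pass. GLDH1, of the last step of ascorbate synthesis (LOC4349749), was at 9.54, 9.17 and 8.95 in RP-I 1, 2 and 3, against 9.98, 9.88 and 9.71 in RP-UI 1, 2 and 3. It was lower in each RP-I array but did not pass (log2 fold change -0.64 ± 0.19, adjusted p = 0.188, and 0.0513 with the block). The other genes listed for ascorbate synthesis, GME-1 and GME-2, had the higher mean in RP-I without passing (log2 fold changes 0.32 and 0.18). GCS, of the first step of glutathione synthesis, had log2 fold changes between 0.30 and 0.43 on 3 probe sets, with the smallest adjusted p at 0.233.

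All 4 thioredoxin reductases had the lower mean in RP-I, with a median log2 fold change of -0.27, and none passed. FTR-B (-0.04) and NTRA (-0.10) were close to 0, each with 1 pair higher in RP-I. NTRB, which reduces thioredoxins with NADPH (LOC4330505), had the largest gap, at 11.48, 11.03 and 10.76 in RP-I 1, 2 and 3 against 11.89, 11.84 and 11.89 in RP-UI 1, 2 and 3. The groups were separate, with RP-I 3 lowest (log2 fold change -0.78 ± 0.20, adjusted p = 0.140, and 0.0606 with the block). BAS1, a plastid peroxiredoxin of another type (LOC4329578), was at 11.27, 11.21 and 10.42 in RP-I 1, 2 and 3, and at 11.47, 11.63 and 11.63 in RP-UI 1, 2 and 3 (log2 fold change -0.61 ± 0.25, adjusted p = 0.345). RBOHB, an NADPH oxidase that produces superoxide outside the cell, differed little (-0.17 on the log2 scale, adjusted p = 0.847). AOX1, the alternative oxidase of mitochondria (LOC4336874), was at 8.16, 8.41 and 7.75 in RP-I 1, 2 and 3 against 6.35, 5.95 and 7.48 in RP-UI 1, 2 and 3. It was higher in every RP-I array without passing (log2 fold change 1.51 ± 0.41, adjusted p = 0.155, and 0.103 with the block).

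**Figure D4:**
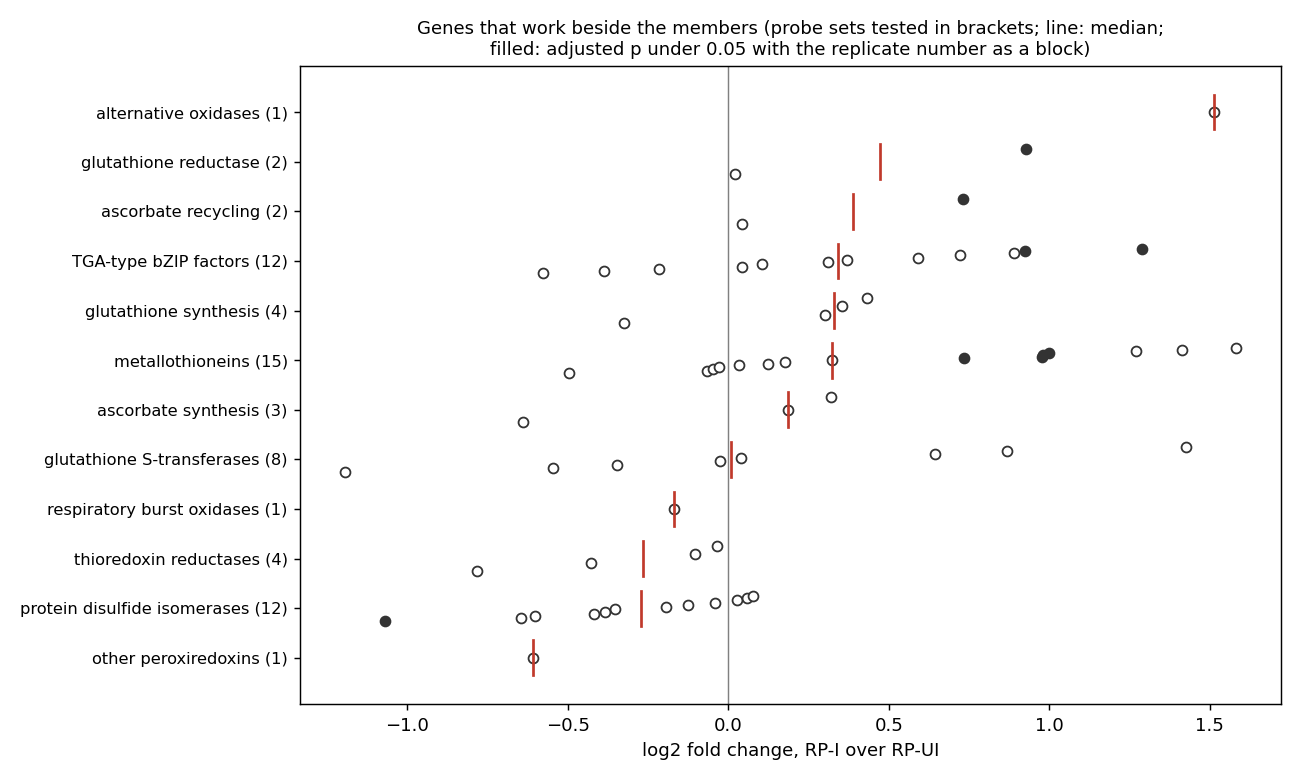
Log2 fold change (RP-I over RP-UI, horizontal axis) of the 65 probe sets tested for genes that work beside the members, by list, with the number of probe sets in brackets. Red lines are list medians and filled points passed an adjusted p of 0.05 with the block. All 4 thioredoxin reductases lie left of 0, FTR-B and NTRA close to it, while glutathione reductase and MDAR2 have filled points at 0.93 and 0.73.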

How the data were processed

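RNA of 6 samples (3 RP-I, 3 RP-UI) was measured on the Affymetrix Rice Genome Array. The values are log2 signals as the authors deposited them, after RMA, which corrects background, equalizes the distributions of the arrays and sums up the probes of a set. GeneSpring is named in their methods, and Affymetrix Expression Console in the submitters' processing notes, without a version. The methods describe pooling RNA of the harvests, whereas the deposited record describes pooling tissue.

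The 123 control probe sets were left out and probe sets kept whose mean reached the 10th percentile (51532 of 57258). RP-I was compared with RP-UI by limma 3.58.1 in R 4.3.3 (lmFit, eBayes), with Benjamini-Hochberg adjustment over all probe sets kept and a threshold of 0.05, after the script was tested on simulated data. ± marks standard errors of this fit. Same-numbered arrays correlated in their deviations from the group means (0.521, 0.308 and 0.624), which meets the rule for pairs (each over 0.1), so a fit blocked on that number is given beside each call it changes. The highest correlation with an array of another number was 0.295 for numbers 1 and 2 and -0.347 for number 3, so number 2 barely stood out. Deviations from a group mean cancel within 3 arrays, and arrays numbered 3 alone could make all same-number correlations positive. The source of the pairing is not stated, since each tray was a replicate of its own.

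Gene names come from the platform's probe annotation and a RefSeq gene table (22436 probe sets name 1 gene). Named by rule were members past the threshold in either fit, the 2 largest differences of each class, all other probe sets of these genes, and the largest difference of each partner list. CatA, APX6, APX7, SodCc1, sodCp, GRXC3, GRXS3, GRXS5, Trxh1, Trxh2-2, Trxm1, Trxf, CiTrx, PRXIIE-1, PRXIIF, SDG723, MT2B, MT1B and TGAL6 were named after their values were seen. Members and lists were chosen with earlier results of these data known. Other filters, scalings and variance models, and leaving out each array, were tried. Tables were read with Python 3.11.15 and pandas 2.3.3, and figures drawn with matplotlib 3.10.9. No sequences of the members were used here.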

Additional observations from a re-analysis of the deposited data

How the results depend on the processing

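With the replicate number as a block, 9 members were called higher and 1 lower, against 0 and 0 without it, and by the 2-fold rule 5 were higher, against 3. Over the array the 2-fold rule gave 1726 higher and 1655 lower of 51532 with the block, against 1373 and 1492 without it. Added after the data were seen, the blocked fit without pair 1 called 0 (6 higher by the 2-fold rule), without pair 2 it called 5 higher and 1 lower (6 and 2 by the 2-fold rule), and without pair 3 it called 4 higher and 1 lower (5 higher by the 2-fold rule). Without both arrays numbered 3 and without a block, 6 were higher and 1 lower (5 higher by the 2-fold rule). Of the 10 calls with the block, 6, 4 and 6 remained in the last 3 of these settings, and the additional call was GRXS3. The 2-fold counts over the array moved as well. They were 1730 higher and 2087 lower without pair 1, 1572 and 1883 without pair 2, and 2089 and 1532 without pair 3. Without both arrays numbered 3 they were 2029 and 1500. Quantile normalization once more called 2 higher. Leaving out single arrays called 0 to 1 lower, and 0 higher. The 1 call came without RP-I 3, where 0.543% of all probe sets were called. Without any other single array, 0 of the 51532 probe sets on the array were called. The filters, the centring on the median and the intensity trend called no member. Over the array, the centring called 45 higher and 81 lower, and the intensity trend 21 and 66. Without a filter 126 and 173 were called, and 138 and 191 with the filter on each array.

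With each array left out in turn, the CAT median log2 fold change lay between 0.46 and 1.23 that of PRXII between -0.15 and 0.14, of TRX between -0.12 and 0.06, of APX between -0.23 and 0.04, of SOD between -0.03 and 0.25 and of GRX between 0.01 and 0.16, and GRX was 0.25 with 1 probe set a gene. The PRXII median was 0.10 with arrays centred and 0.050 with 1 probe set a gene. Signs turned for values near 0. sodA A was -0.0052 when centred and -0.049 without pair 3 in the blocked fit or without both arrays numbered 3, and in these last settings sodA B was -0.12. PRXIIE-1 was 0.0038 after quantile normalization. In the fits without 1 array, log2 fold changes ranged from -0.070 to 0.84 for APX1, -0.51 to 1.51 for CatB E, -0.31 to 1.10 for PRXIIC B, -0.10 to 0.58 for PRXIIC A, -0.19 to 0.16 for PRXIIE-1, -0.17 to 0.089 for SodCc1, -0.023 to 0.071 for sodA A, -0.32 to 0.41 for sodA B and -0.28 to 0.013 for RBOHB. The cause of these shifts was not tested. With 3 arrays a group, the number of arrays limits the precision.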

Other observations

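Of the 65 probe sets of genes that work beside the members, 47 belong to 4 lists of genes that bind glutaredoxins or handle thiols, and 6 of these passed as higher and 1 as lower with the block. This is 14.9%, against 8.50% over the array (4.06% higher and 4.44% lower). Several of the higher calls are probe sets of 1 metallothionein gene, and the lists were chosen with earlier results known. TGA-type bZIP factors, which bind glutaredoxins of the ROXY kind in Arabidopsis, had the higher mean in RP-I for 9 of 12 probe sets, with a median log2 fold change of 0.34. TGA2.1 (LOC4344349) was at 10.85, 10.81 and 10.23 in RP-I 1, 2 and 3, and at 9.29, 9.69 and 9.03 in RP-UI 1, 2 and 3 (log2 signal). Its groups were separate, and it passed with the block (log2 fold change 1.29 ± 0.25, adjusted p = 0.0790 without the block and 0.0173 with it). TGAL6 passed with the block as well (log2 fold change 0.92 ± 0.39, adjusted p = 0.364 without the block and 0.0309 with it), although its groups overlapped.

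Metallothioneins, small cysteine-rich proteins that bind metals and scavenge radicals, had the higher mean in RP-I for 11 of 15 probe sets tested. Their calls divided by gene under shared symbols. Of the genes named MT2B, LOC4326409 passed with the block on its 3 tested probe sets, with log2 fold changes between 0.73 and 1.00. Without the block their adjusted p lay between 0.134 and 0.184. In contrast, LOC4337596 had log2 fold changes between -0.05 and 0.18 on 5 probe sets and passed on none. Of those named MT1B, LOC4352580 passed with the block (0.98 ± 0.32, adjusted p = 0.226 without the block and 0.0272 with it) and LOC4332487 was at -0.07. The difference between genes of a shared name was not tested. MT-2 (LOC4325218, probe set A) had the largest difference of the list, at 10.25, 10.91 and 11.68 in RP-I 1, 2 and 3 against 9.60, 8.43 and 10.05 in RP-UI 1, 2 and 3 (log2 fold change 1.58 ± 0.52, adjusted p = 0.225, and 0.0598 with the block).

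Protein disulfide isomerases, thioredoxin-fold enzymes of the secretory pathway, had the lower mean in RP-I for 9 of 12 probe sets, with a median log2 fold change of -0.27. PDIL1-2 (LOC4335906) passed as lower with the block, at 6.33, 6.37 and 5.49 in RP-I 1, 2 and 3 against 7.34, 7.50 and 6.56 in RP-UI 1, 2 and 3 (log2 fold change -1.07 ± 0.34, adjusted p = 0.219 without the block and 0.0172 with it). Glutathione S-transferases were divided, with 4 of 8 probe sets higher and 4 lower. GSTU6 (LOC4349207, probe set A) had log2 signals of 9.11, 9.43 and 9.88 in RP-I 1, 2 and 3 and of 8.26, 7.12 and 8.77 in RP-UI 1, 2 and 3, without passing (log2 fold change 1.43 ± 0.44, adjusted p = 0.201, and 0.0538 with the block).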
